A study of Mus musculus with 14 samples.

Results

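The genes of cholesterol synthesis, cellular uptake and export were followed as 1 module across the RNA-seq libraries of mouse liver. The module held 33 genes, chosen by name from the 45706 genes of the deposited count table. Every member passed the filter on low counts and was among the 15674 genes tested. By role, 18 members code for enzymes of cholesterol synthesis, 4 for uptake and intracellular transport, 4 for sterol sensing and its regulation, 2 for cholesterol esterification, and 5 for export and its control by the liver X receptors (LXR). All mice were male C57BL6/J animals that were 8 weeks old when the diets began, and the diets ran for 16 weeks. The C18:1-leucine group (titled MASH OAL, 3 libraries) and the C18:1 group (titled MASH OA, 4 libraries) ate the MASH diet and then had 6 more weeks on it with the named compound, given by feeding. The MASH group (3 libraries) ate the MASH diet, which is used to bring about metabolic dysfunction-associated steatohepatitis, a fatty and inflamed liver. The chow group (titled CD, 4 libraries) ate a standard diet. The labels give no doses, and they do not say whether the MASH group received the vehicle or how old the chow mice were at collection. The sources also do not say that each library came from a separate mouse, so p-values measure the spread between these libraries.

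Cells make cholesterol from acetyl-CoA through mevalonate, isoprenoid units, squalene and lanosterol, and they take it up from lipoproteins. When sterols in the endoplasmic reticulum are low, SCAP escorts the transcription factor SREBP2 to the Golgi, where it is cut and set free to raise the genes of synthesis and uptake. When sterols are high, the INSIG proteins hold SCAP back, while oxidised sterols activate LXR, which raises the ABC transporters that move cholesterol out of cells or into bile. The liver is the main organ of this balance, since it also secretes lipoproteins and makes bile acids.

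The promoters below are examples from synthesis and export genes. They do not stand for all genes of a role, and a link of their motifs to the changes against chow was not tested. SREBP2 binds the sterol regulatory element and acts with NF-Y, which binds the CCAAT box, and with SP1, which binds the GC box. Each sequence is the stretch just before the annotated gene start from RefSeq (GRCm38.p6), read 5′ to 3′ on the strand of the gene, and capitals mark a sterol regulatory element (TCACNCCAC) or a CCAAT box on either strand. Hmgcs1 (chr13:119690101-119690350, + strand) carries 1 sterol regulatory element and 3 CCAAT boxes in this stretch, Mvd (chr8:122443423-122443672, − strand) carries 2 CCAAT boxes, and Mvk (chr5:114444019-114444268, + strand) carries 5. The export gene Abca1 (chr4:53159896-53160145, − strand) has neither motif there. The last sequence (chr17:84683012-84683120, + strand) lies between the start of Abcg5 and 1 of the annotated starts of Abcg8, which run in opposite directions, and it holds neither motif and no GC box. Other export promoters do hold CCAAT boxes. There are 3 in that of Mylip and 2 in that of Abcg8, where they lie upstream of the stretch shown.
Hmgcs1: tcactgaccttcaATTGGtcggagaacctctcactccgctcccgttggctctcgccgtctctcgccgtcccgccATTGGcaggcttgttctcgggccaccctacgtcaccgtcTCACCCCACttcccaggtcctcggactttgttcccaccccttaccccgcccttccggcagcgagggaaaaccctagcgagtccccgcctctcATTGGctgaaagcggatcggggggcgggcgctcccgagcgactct
Mvd: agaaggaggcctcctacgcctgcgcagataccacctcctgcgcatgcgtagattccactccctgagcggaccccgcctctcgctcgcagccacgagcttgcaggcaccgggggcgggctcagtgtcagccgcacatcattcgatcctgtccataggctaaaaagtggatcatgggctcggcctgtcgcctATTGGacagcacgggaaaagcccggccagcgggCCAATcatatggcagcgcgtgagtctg
Mvk: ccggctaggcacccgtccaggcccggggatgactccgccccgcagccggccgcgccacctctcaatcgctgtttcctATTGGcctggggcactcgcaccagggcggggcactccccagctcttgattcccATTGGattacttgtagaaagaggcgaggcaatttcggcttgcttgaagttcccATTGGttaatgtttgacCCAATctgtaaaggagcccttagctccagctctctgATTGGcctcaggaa
Abca1: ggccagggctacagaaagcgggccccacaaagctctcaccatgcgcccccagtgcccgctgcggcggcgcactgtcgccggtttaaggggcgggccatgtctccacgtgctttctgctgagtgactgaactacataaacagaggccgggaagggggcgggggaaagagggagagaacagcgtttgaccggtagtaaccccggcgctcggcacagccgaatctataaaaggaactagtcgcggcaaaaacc
Abcg5-Abcg8: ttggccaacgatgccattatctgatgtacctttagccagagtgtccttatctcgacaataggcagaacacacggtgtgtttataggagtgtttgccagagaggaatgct

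Of the 33 members, 25 had an entry in the RefSeq promoter table, which runs from 250 bases before to 50 bases after the start. On either strand, a CCAAT box (CCAAT) was found in 14 of 15 synthesis genes, 93.3%, against 42.6% of the 11188 tested genes with an entry and 41.1% of all 27025 genes with one. A GC box (GGGCGG) was found in 14 of 15 synthesis genes, against 65.6% of tested genes. The sterol regulatory element was found in 1 of 15 synthesis genes, Hmgcs1, whose match lies within chr13:119690204-119690232, against 1.47% of tested genes. The palindromic E-box that SREBPs also bind (TCACGTGA) was found in no synthesis gene, against 2.08% of tested genes. Among the export genes 3 of 4 held a CCAAT box and 2 of 4 a GC box. The LXR response element DR4 was searched only as exact AGGTCA repeats in the same direction, with any 4 bases between them. That exact form was found in none of the 25 members and in 4 of all 27025 genes. Elements that differ from it were not searched, so this does not show that a member lacks an LXR element. These are matches of letters within that stretch. Abcg1, Fdft1, Fdps, Npc1, Scarb1, Soat2, Sqle and Stard4 were not searched.

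Library totals ran from 33821874 to 51107248 counts. The treatment tags of 2 libraries disagree with their titles: C18:1 replicate 1 is tagged as diet only and C18:1-leucine replicate 1 as C18:1, and groups here follow the titles. Hepatocyte markers (8 genes) were present in every library, with sums of 35645 to 93360 CPM (counts scaled to library size). Pancreatic acinar markers (8 genes) summed to 540 CPM in replicate 2 of the C18:1-leucine group, to 145 CPM in replicate 2 of the chow group, and to at most 1.61 CPM in each other library. Calls of members that change without 1 of these pairs of libraries are named, and the main counts are given with and without it. Shares over all tested genes are those of the fit with all 14 libraries. Counts without a pair therefore have no such share beside them, and a loss of calls there was not set against that of all genes. The calls below are those of edgeR's quasi-likelihood test with Benjamini-Hochberg adjustment over all tested genes, at an adjusted p of 0.05, and levels are CPM scaled by TMM (trimmed mean of M-values).

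The comparison of MASH with chow livers asks how the diet moved the module. The synthesis genes were lower almost throughout: 17 of 18 passed the test as lower in MASH livers and 1, Acat2, did not pass, while 15.1% of all tested genes were lower and 20.4% were higher. Over the 18 genes the median log2 fold change was −1.79, against a median of 0.01 over all tested genes. Of the 22 synthesis and uptake genes, 19 were lower and 2 were higher in MASH livers, with a median of −1.69. Without the 2 libraries whose tags disagree 19 were lower with a median of −1.69, and without the 2 with pancreatic transcripts 19 were lower with a median of −1.68. Of the 5 export genes, 2 were higher, 0 lower and 3 not called, with a median of 0.53. In bulk liver RNA, fewer cells of a type and less RNA per cell cannot be told apart: 7 of 8 hepatocyte markers were also lower in MASH livers, with a median log2 fold change of −0.73 (6 of 8 without the 2 libraries with pancreatic transcripts), and their part in the fall of the synthesis genes was not tested.

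**Figure D1:**
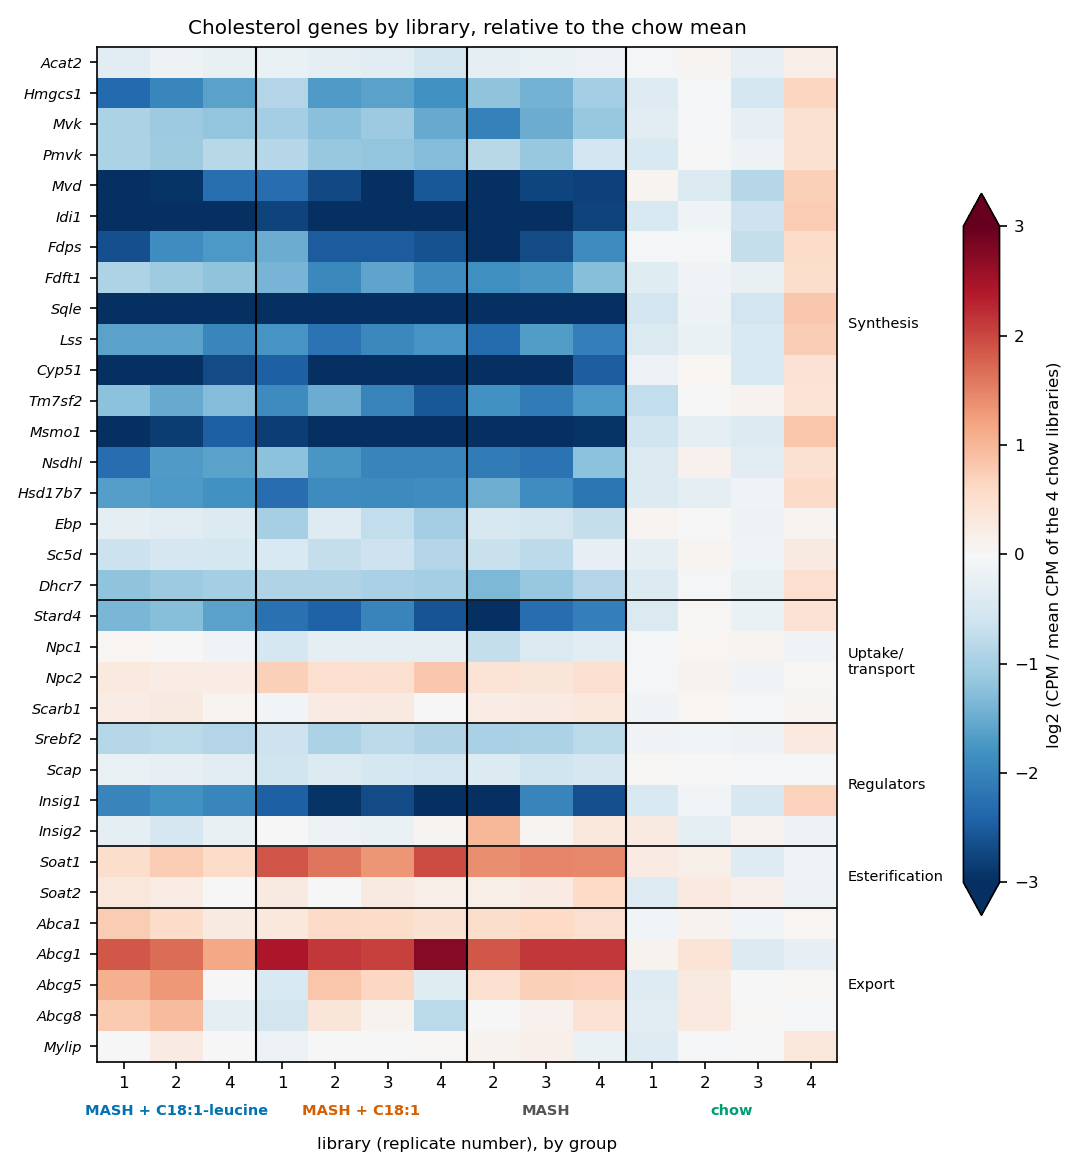
Level of each of the 33 members in each of the 14 libraries, as the log2 ratio of its CPM to the mean CPM of the 4 chow libraries (colour, capped at −3 and 3), with genes grouped by role and libraries by group and replicate number. Most synthesis rows, with Stard4 and Insig1, are blue across the 10 MASH-diet libraries, and Soat1 and Abcg1 are red there.

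The largest fall was that of Sqle, squalene epoxidase, which makes the first oxygenation step of the sterol branch. Sqle stood at 1.18, 1.098 and 4.71 CPM in MASH livers, against 40.1, 53.2, 40.1 and 105 CPM in chow livers. All MASH values lay far under all chow values, and replicate 4 was the highest in each group. The log2 fold change was −4.67 ± 0.71 (SE), 25.4-fold lower in MASH livers (adjusted p = 0.000465, edgeR). Idi1, the isomerase that makes the second isoprenoid building block, stood at 6.65, 6.02 and 20.2 CPM in MASH livers, against 102, 127, 91.0 and 237 CPM in chow livers. It was 12.7-fold lower, at −3.67 ± 0.60 on the log2 scale (adjusted p = 0.000732), and no values overlapped. Idi1 had fractional values in 13 of 14 libraries, and how these arose is not stated, so its level is less certain. Msmo1, which removes the methyl groups at carbon 4 of the sterol ring, stood at 9.57, 12.2 and 18.8 CPM in MASH livers, against 95.5, 119, 109.6 and 258 CPM in chow livers. Its fold change was −3.43 ± 0.39 (adjusted p = 6.92e-05) with no overlap. Cyp51, the lanosterol demethylase, had the smallest p of the synthesis genes. Its values were 14.5, 13.9 and 22.2 CPM in MASH livers, against 110.3, 129, 90.3 and 169 CPM in chow livers. The groups stood apart, with a log2 fold change of −2.88 ± 0.29 (adjusted p = 2.78e-05).

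The falls ran along the whole pathway, and they were uneven. Among the enzymes up to mevalonate and its phosphates, Hmgcs1 (the cytosolic synthase of HMG-CoA) had a log2 fold change of −1.21, Mvk (mevalonate kinase) of −1.504, Pmvk (phosphomevalonate kinase) of −0.83 and Mvd (the decarboxylase) of −2.93. Acat2, the cytosolic thiolase that joins acetyl-CoA units, was at −0.23 ± 0.10 and did not pass (adjusted p = 0.0986); it passed as lower without chow replicate 3 (adjusted p = 0.0317). The isoprenoid and squalene enzymes Fdps and Fdft1 were at −2.45 and −1.60, and Lss, which closes squalene epoxide into lanosterol, was at −1.999. Of the enzymes that trim lanosterol, Tm7sf2 was at −1.87, Hsd17b7 at −1.81, Nsdhl at −1.77 and Dhcr7 at −1.11. Ebp and Sc5d, late isomerase and desaturase steps, moved least among the genes called, at −0.57 and −0.55. Sc5d was no longer called without MASH replicate 3 (adjusted p = 0.0545). Fdps, Acat2 and Tm7sf2 had fractional values in all 14 libraries and Fdft1 in 9. Fdps shares 26.7% of its exonic bases with Gm43738 on the same strand and Fdft1 18.3% with Ctsb on the opposite strand, so their counts are uncertain to that extent. The same holds for Tm7sf2, which shares 12.1% with Vps51 on the same strand. Scap (13.2%), Hmgcs1 (12.1%) and Idi1 (9.2%) overlap genes on the opposite strand, and any other member shares at most 5.3%. The labels do not say whether strand was used in counting.

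**Figure D2:**
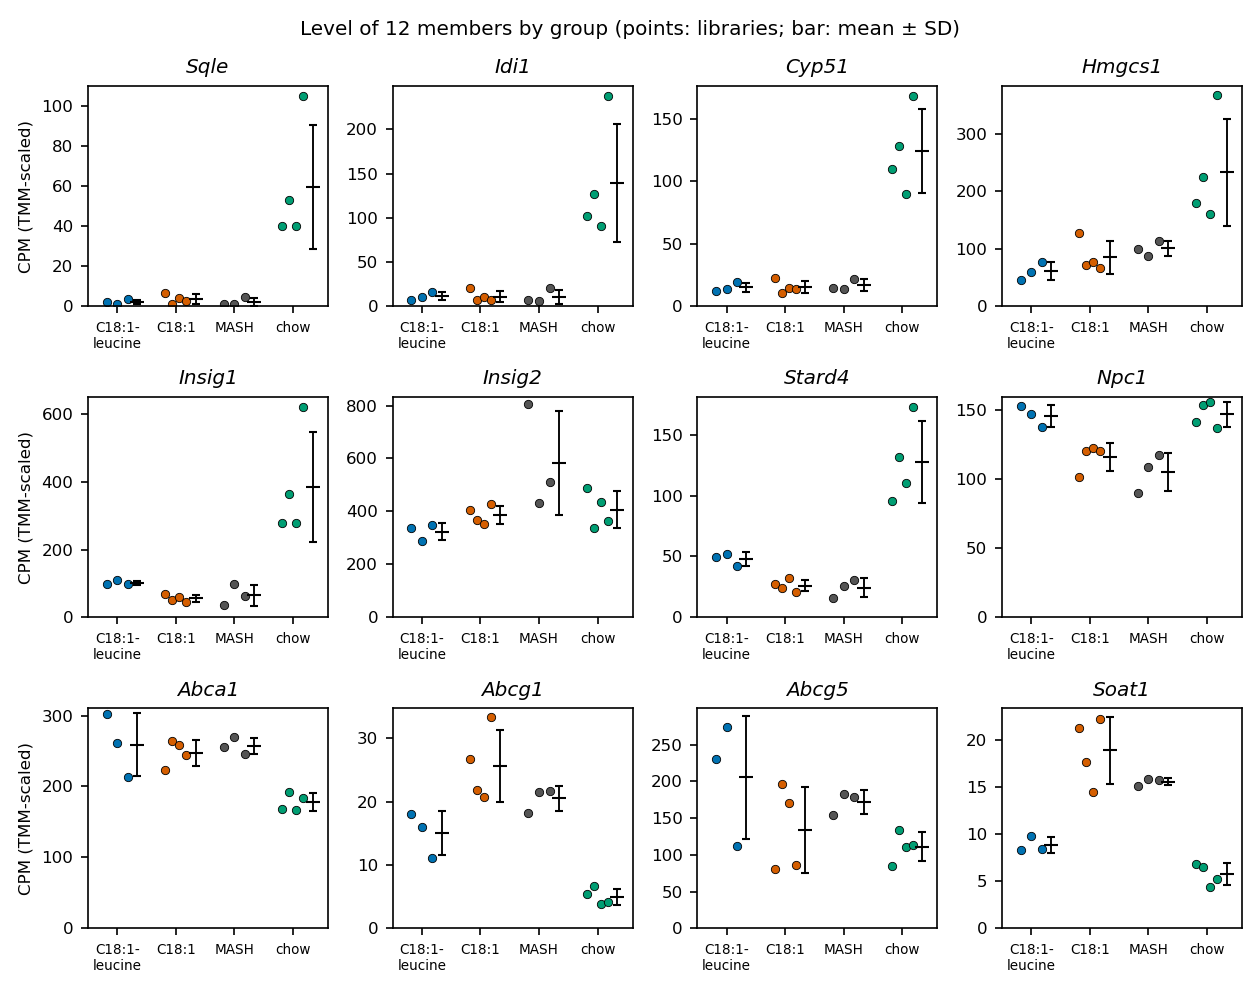
CPM of 12 members by group, with 1 point per library and the mean ± SD beside the points (n = 3, 4, 3 and 4). Sqle, Idi1, Cyp51, Insig1 and Stard4 lie lower in all 3 MASH-diet groups than in chow, while Soat1 and Abcg1 lie higher in all 3 and have their highest mean in the C18:1 group.

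Among the genes of uptake and intracellular transport, Stard4, a soluble carrier that moves sterol between membranes, behaved like the synthesis genes. It stood at 16.0, 26.0 and 31.0 CPM in MASH livers, against 95.2, 131, 110.4 and 173 CPM in chow livers. The groups did not overlap, and the log2 fold change was −2.39 ± 0.25 (adjusted p = 3.15e-05). Npc1, which passes cholesterol out of late endosomes, was lower by 0.48 (105 ± 13.8 CPM in MASH livers, against 147 ± 9.13 CPM in chow livers; SD, n = 3 and 4; adjusted p = 0.00238). Its partner in the endosome lumen, Npc2, was higher by 0.43 ± 0.08 (adjusted p = 0.00207). Scarb1, the HDL receptor, was higher by 0.27 ± 0.10 at an adjusted p of 0.0434. That call was lost when any 1 of 10 libraries was left out, at an adjusted p of up to 0.133 without MASH replicate 4, and was kept without any 1 of the C18:1 libraries. The Scarb1 call was also lost without the 2 libraries with pancreatic transcripts (adjusted p = 0.0662, edgeR).

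The regulators split. Srebf2, which codes for SREBP2, stood at 33.8, 34.3 and 37.8 CPM in MASH livers, against 61.0, 62.4, 59.7 and 80.3 CPM in chow livers. The groups did not overlap, and it was lower by 0.90 ± 0.11 on the log2 scale (adjusted p = 6.02e-05). Scap was lower by 0.50 ± 0.07 (adjusted p = 0.000165). Insig1, itself a target of SREBP2, stood at 35.7, 97.5 and 62.3 CPM in MASH livers, against 279.8, 365, 278 and 622 CPM in chow livers. All MASH values were under all chow values, at −2.57 ± 0.35 (adjusted p = 0.000191). Insig2, the isoform that SREBP2 does not drive, was called higher at 0.52 ± 0.19 (adjusted p = 0.0427), but its groups overlapped: 806, 434 and 511 CPM in MASH livers and 490.2, 337, 436 and 364 CPM in chow livers. The Insig2 call was lost when any 1 of 11 libraries was left out, at an adjusted p of 0.297 without MASH replicate 2, and was kept without chow replicate 1, MASH replicate 3 or C18:1 replicate 3. It was also lost without the 2 libraries whose tags disagree (adjusted p = 0.0623, edgeR) and without the 2 with pancreatic transcripts (adjusted p = 0.119).

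Of the export genes, Abcg1 moved most. Abcg1, which loads cholesterol onto HDL and is known best from macrophages, stood at 18.3, 21.6 and 21.7 CPM in MASH livers, against 5.41, 6.61, 3.78 and 4.18 CPM in chow livers. The groups stood apart, with a log2 fold change of 2.04 ± 0.22 (adjusted p = 3.18e-05). Abca1, which hands cholesterol to apolipoprotein A-I, stood at 255, 269 and 246 CPM in MASH livers, against 168, 192, 167 and 184 CPM in chow livers. It was higher by 0.53 ± 0.11 (adjusted p = 0.00236) with no overlap. Abcg5 and Abcg8 form the pair that sends sterols into bile. Abcg5 stood at 154, 183 and 179 CPM in MASH livers and at 85.3, 133, 110.4 and 114 CPM in chow livers. Its groups did not overlap, yet it was not called at 0.64 ± 0.33 (adjusted p = 0.150); it was called when the MASH and chow libraries were fitted alone (adjusted p = 0.00992). Abcg8 (0.20 ± 0.30, adjusted p = 0.631) and Mylip, the ubiquitin ligase that marks lipoprotein receptors for breakdown (0.03 ± 0.14, adjusted p = 0.868), did not pass. Of the genes whose products esterify cholesterol for storage, Soat1 stood at 15.1, 15.8 and 15.7 CPM in MASH livers, against 6.85, 6.52, 4.41 and 5.27 CPM in chow livers, higher by 1.43 ± 0.16 (adjusted p = 4.23e-05). Soat2, the hepatocyte and intestinal isoform, was at 0.34 ± 0.15 and did not pass (adjusted p = 0.0858), though it did without chow replicate 2 (adjusted p = 0.0326). Soat2 also passed as higher without the 2 libraries with pancreatic transcripts (adjusted p = 0.0451, edgeR).

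The C18:1 and C18:1-leucine groups were also set against chow, and these comparisons share the 4 chow libraries with the one above. In C18:1-leucine livers 16 of 18 synthesis genes were lower than in chow and 2, Ebp and Acat2, were not called, while 4.34% of all tested genes were lower and 10.2% higher. In C18:1 livers all 18 synthesis genes were lower, while 24.9% of all tested genes were lower and 27.8% higher. Over the 22 synthesis and uptake genes the median log2 fold change was −1.38 in C18:1-leucine and −1.70 in C18:1 livers. In C18:1-leucine livers 17 of the 22 were lower, 16 without the 2 libraries whose tags disagree and 15 without the 2 with pancreatic transcripts, and in C18:1 livers 20 were lower in each of these settings and with all libraries. Sqle was at −4.75 ± 0.71 in C18:1-leucine livers and −4.01 ± 0.60 in C18:1 livers, with 1.91, 1.24 and 3.42 CPM in C18:1-leucine livers and 6.52, 1.14, 4.39 and 2.48 CPM in C18:1 livers, all under the lowest chow value. Abca1 (0.54 in C18:1-leucine and 0.48 in C18:1 livers) and Abcg1 (1.60 and 2.36 in the same order) were the 2 export genes called higher in each. The transport genes and Soat1 had less even values. Npc1 was at −0.01 ± 0.10 in C18:1-leucine livers (adjusted p = 0.942) and −0.34 ± 0.09 in C18:1 livers (adjusted p = 0.00631). Stard4 was at −1.41 and −2.29 and Soat1 at 0.62 and 1.72 in the same order. The Soat1 call in C18:1-leucine livers was lost without chow replicate 3 or 4 or C18:1-leucine replicate 2 or 4, at adjusted p from 0.0581 to 0.0846. Those of Sc5d and Scap were lost without 5 and 2 single libraries, all of them chow replicate 2 or 4 or C18:1-leucine libraries, at adjusted p from 0.0576 to 0.0892. Without the 2 libraries with pancreatic transcripts the calls of Pmvk, Sc5d, Scap and Soat1 in C18:1-leucine livers were lost (edgeR adjusted p from 0.0537 to 0.106). That of Sc5d was also lost without the 2 whose tags disagree (adjusted p = 0.0815). Abcg5 was called higher without C18:1-leucine replicate 4 (adjusted p = 0.0459), and Ebp lower without C18:1 replicate 2 (adjusted p = 0.0284).

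Taking the 10 MASH-diet libraries against the 4 chow libraries without any model, 16 of 18 synthesis genes had every MASH-diet value under every chow value, and Acat2 and Sc5d overlapped. Over all tested genes 7.04% were lower in this way and 12.2% higher. Stard4, Srebf2, Scap and Insig1 were also lower without overlap. Npc2, Abca1, Abcg1 and Soat1 were higher without overlap, and Npc1, Scarb1, Insig2, Soat2, Abcg5, Abcg8 and Mylip overlapped.

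The next comparisons set the livers given a compound against MASH livers. The labels give 6 further weeks for the compound groups and do not say whether the MASH group also had them, so without that, compound and longer time on the diet cannot be told apart in the comparisons with MASH. Between C18:1 and MASH livers no member was called, and neither was any of the tested genes (0%), with a lowest adjusted p of 0.770 and 968 genes at an unadjusted p under 0.05. DESeq2 and limma voom also called 0 of the 22 synthesis and uptake genes and 0 of the 5 export genes. The synthesis genes had a median log2 fold change of −0.02 and the export genes of −0.07. Sqle had a 95% interval wide enough to hold changes of either sign in each comparison within the MASH diet; between C18:1-leucine and C18:1 livers it ran from −2.17 to 0.69.

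Between C18:1-leucine and MASH livers no member was called either, and 0.0702% of all tested genes were, with 2836 genes at an unadjusted p under 0.05. The lowest adjusted p among members was 0.0710, that of Soat1 and of Npc1. Soat1 stood at 8.27, 9.80 and 8.41 CPM in C18:1-leucine livers, against 15.1, 15.8 and 15.7 CPM in MASH livers, without overlap, and was called without C18:1 replicate 3 (adjusted p = 0.0445). Insig2 stood at 336, 288 and 348 CPM in C18:1-leucine livers, against 806, 434 and 511 CPM in MASH livers, a log2 fold change of −0.85 ± 0.20 (adjusted p = 0.0766). Stard4 was at 0.98 ± 0.25 (adjusted p = 0.0885). DESeq2 called Npc1, Stard4 and Scap higher and Soat1 and Insig2 lower in C18:1-leucine livers, at adjusted p from 0.00131 to 0.0197, and voom called the same genes other than Scap at adjusted p from 0.0252 to 0.0336. These calls therefore turn on the tool, and that of Soat1 also on the libraries fitted. With the C18:1-leucine and MASH libraries fitted alone, edgeR called Soat1 lower, at −0.82 (adjusted p = 0.0471). The synthesis genes had no common direction: 11 of 18 fold changes were above 0, the median was 0.08, and Hmgcs1 was lowest at −0.72 (95% interval −1.40 to −0.04).

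**Figure D3:**
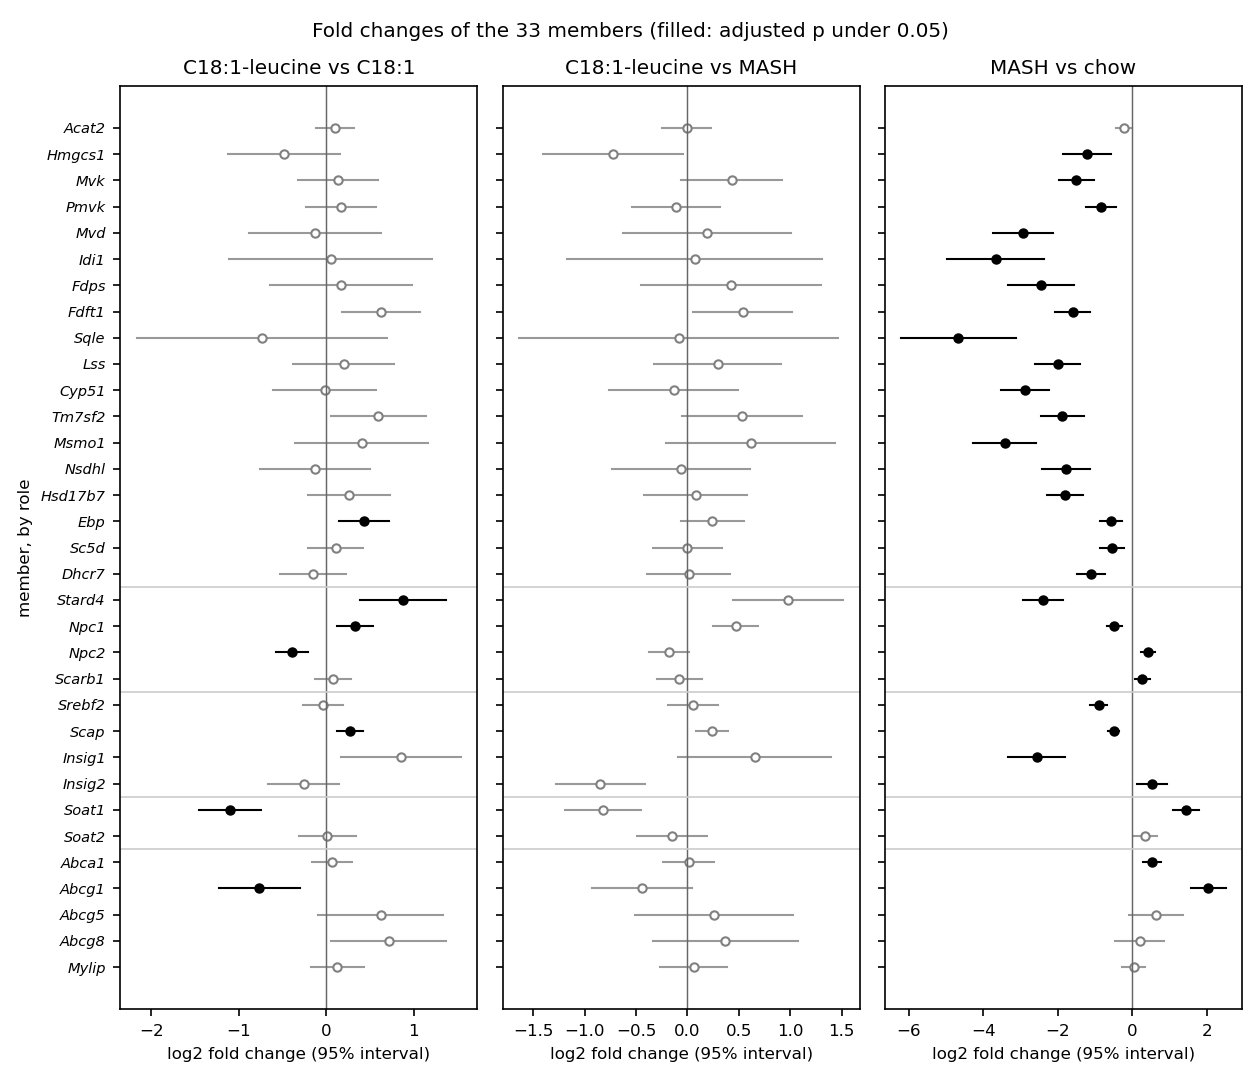
Log2 fold change of each member with its 95% interval in 3 comparisons, C18:1-leucine against C18:1 (left), C18:1-leucine against MASH (middle) and MASH against chow (right), on axes of different range. Filled points passed an adjusted p of 0.05: 7 members on the left, 0 in the middle and 28 on the right.

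C18:1-leucine against C18:1 is the comparison of the 2 compounds, which differ in name by the leucine. Here 4 members were higher and 3 lower in C18:1-leucine livers, and 26 did not pass, while 7.34% of all tested genes were higher and 8.89% lower. These counts are near the shares over all genes. By role, the calls were 1 of 18 synthesis genes, 3 of 4 genes of uptake and transport, 1 of 4 regulators, 1 of 2 esterification genes and 1 of 5 export genes, and no difference between roles was tested. Stard4 stood at 49.6, 52.4 and 41.8 CPM in C18:1-leucine livers, against 27.2, 23.8, 32.3 and 21.2 CPM in C18:1 livers. The groups did not overlap, and the log2 fold change was 0.87 ± 0.23 (adjusted p = 0.0236). Npc1 stood at 153, 147 and 137 CPM in C18:1-leucine livers, against 101, 120.4, 122 and 120.3 CPM in C18:1 livers. Its C18:1-leucine values were in the range of the chow values, 137 to 156 CPM, and the log2 fold change from C18:1 was 0.33 ± 0.10 (adjusted p = 0.0351). Scap was higher at 107, 102 and 95.3 CPM in C18:1-leucine livers, against 79.7, 91.0, 84.9 and 81.2 CPM in C18:1 livers, by 0.27 ± 0.07 (adjusted p = 0.0190). Ebp, the sterol isomerase, was called higher by 0.43 ± 0.13 (adjusted p = 0.0408), although C18:1 replicate 2, at 96.4 CPM, lay within the range of 94.6 to 104 CPM in C18:1-leucine livers.

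The members lower in C18:1-leucine livers were Soat1, Abcg1 and Npc2. Soat1, the isoform of most cells, macrophages included, stood at 8.27, 9.80 and 8.41 CPM in C18:1-leucine livers, against 21.3, 17.6, 14.5 and 22.2 CPM in C18:1 livers. No values overlapped, and the log2 fold change was −1.10 ± 0.16 (adjusted p = 0.00329). Abcg1 stood at 18.02, 16.1 and 11.2 CPM in C18:1-leucine livers, against 26.7, 21.8, 20.7 and 33.3 CPM in C18:1 livers, lower by 0.77 ± 0.21 on the log2 scale (adjusted p = 0.0292). Npc2 stood at 81.8, 77.2 and 77.0 CPM in C18:1-leucine livers, against 109.9, 95.03, 92.4 and 116 CPM in C18:1 livers, lower by 0.39 ± 0.09 (adjusted p = 0.0104). Fdft1, squalene synthase, and Insig1 had no overlap between the groups and were not called: Fdft1 was at 0.62 ± 0.21 (adjusted p = 0.0566) and Insig1 at 0.85 ± 0.32 (adjusted p = 0.0867). Both were called higher by DESeq2 (adjusted p = 0.0267 and 0.0356) and by voom (0.0338 and 0.0348). With the compared groups fitted alone, edgeR also called them (0.0413 and 0.0204). Hsd17b7 and Insig2 had no overlap either and were not called (adjusted p = 0.445 and 0.365, edgeR).

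The Soat1 call held when any 1 library was left out, with adjusted p at most 0.0242, and without the 2 libraries whose tags disagree (adjusted p = 0.0350) or without the 2 with pancreatic transcripts (adjusted p = 0.0284). With groups taken from the tags it was at −0.78 and not called (adjusted p = 0.330). The other 6 calls between the compounds were less firm, and none held in any of these 3 settings. Those of Stard4, Npc1 and Scap were each lost without C18:1 replicate 1 or 4 or without C18:1-leucine replicate 1 or 2, at adjusted p from 0.0554 to 0.119. That of Abcg1 was lost without C18:1 replicate 1 or 4 or C18:1-leucine replicate 2 or 4 (0.0683 to 0.0886), that of Npc2 without C18:1-leucine replicate 2 (0.0530), and that of Ebp without any 1 of 8 libraries (0.0501 to 0.123). The count of synthesis and uptake genes called, 4, was 1 without C18:1 replicate 1, C18:1 replicate 4 or C18:1-leucine replicate 1, and 0 without C18:1-leucine replicate 2. The count of export genes called, 1, was 0 without C18:1 replicate 1, C18:1 replicate 4 or C18:1-leucine replicate 2. Calls were gained for Fdft1 without chow replicate 1 or 4 or MASH replicate 4 (0.0237 to 0.0486), for Insig1 without chow replicate 4 (0.0451), for Tm7sf2 without C18:1 replicate 2 (0.0451) and for Abcg8 without C18:1-leucine replicate 4 (0.0314).

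Abcg5 and Abcg8 lie head to head on chromosome 17 (Abcg5 at chr17:84658234-84683011 on the − strand and Abcg8 at chr17:84676302-84700333 on the + strand in GENCODE M21), and their levels moved together from library to library. Abcg5 stood at 230.0, 274 and 112 CPM in C18:1-leucine livers and at 80.9, 197, 171 and 85.9 CPM in C18:1 livers. Abcg8 stood at 213, 238 and 102 CPM in C18:1-leucine livers and at 85.2, 160.3, 135 and 70.7 CPM in C18:1 livers. The same libraries were low for each gene, C18:1-leucine replicate 4 and C18:1 replicates 1 and 4, so the groups overlapped. The fold changes, 0.62 ± 0.33 and 0.71 ± 0.30, did not pass (adjusted p = 0.218 and 0.128); voom called them at 0.0363 and 0.0206. The ratio of Abcg5 to Abcg8 in CPM, not scaled by length, was 1.08 to 1.15 in C18:1-leucine livers, 0.949 to 1.27 in C18:1 livers and 1.06 to 1.33 in MASH livers, against 0.867 to 0.948 in chow livers. The pair shares 82 exonic bases on opposite strands, and these ratios were not tested.

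**Figure D4:**
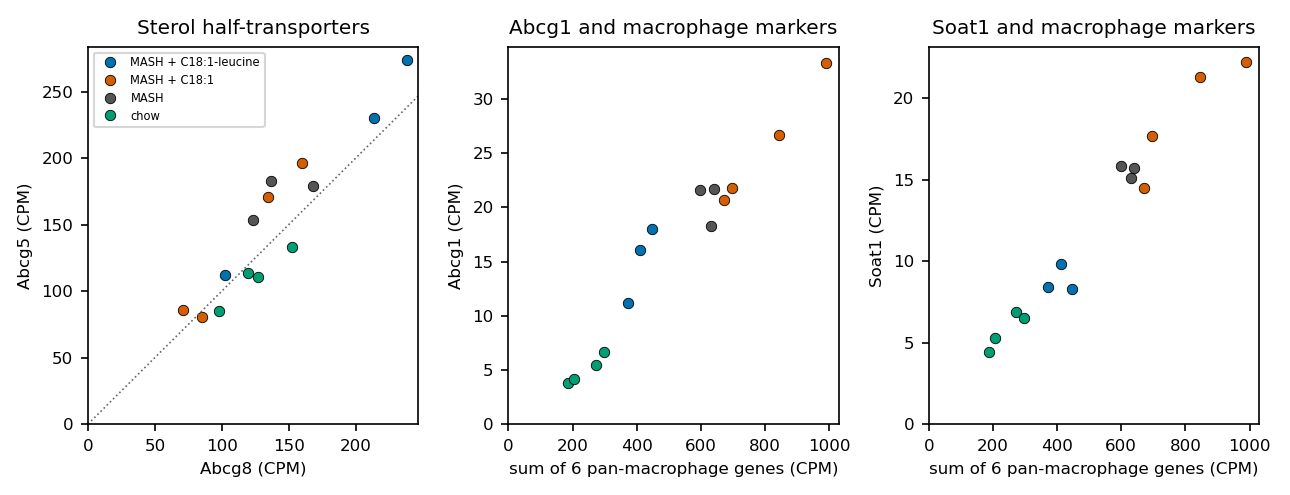
Each point is 1 of the 14 libraries. Left, CPM of Abcg5 against Abcg8 with a dotted line at equal values, where Abcg5 is the lower of the pair in the 4 chow libraries and C18:1 replicate 1; middle and right, CPM of Abcg1 and of Soat1 against the summed CPM of 6 pan-macrophage genes, where chow libraries are low on each axis and C18:1 libraries reach the highest values.

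Macrophage transcripts moved with Soat1, Abcg1 and Npc2. The sum of 6 pan-macrophage markers was 373 to 448 CPM in C18:1-leucine livers, 672 to 989 CPM in C18:1 livers, 598 to 641 CPM in MASH livers and 186 to 297 CPM in chow livers. All 6 were lower in C18:1-leucine than in C18:1 livers and higher in MASH than in chow livers. Between the compounds 4 of 6 were lower without the 2 libraries whose tags disagree and 3 of 6 without the 2 with pancreatic transcripts. Of 9 markers of recruited, lipid-associated macrophages, 7 were lower in C18:1-leucine than in C18:1 livers, with sums of 232 to 470 CPM against 500 to 997 CPM, and all 9 were higher in MASH than in chow livers. Between the compounds 3 of 9 were lower in each of those settings. Of 5 resident Kupffer cell markers none passed between the compounds, with a median log2 fold change of −0.54 and sums of 113 to 486 CPM in C18:1-leucine and 352 to 716 CPM in C18:1 livers. Hepatocyte markers ran the other way, at 50266 to 72479 CPM in C18:1-leucine livers and 35645 to 45036 CPM in C18:1 livers, with 4 of 8 higher in C18:1-leucine livers and 0 in each of those settings (median log2 fold changes of 0.26 and 0.52, against 0.53 over all libraries). No macrophage or hepatocyte marker was at 0 in a library, and the part of these cells in the member results was not tested.

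Within groups, 1 library was often the highest for most synthesis genes. Chow replicate 4 was the highest of the chow libraries for 17 of 18 synthesis genes, with a summed synthesis level of 2399 CPM against 1317 to 1584 CPM in the other chow libraries. Without it, the median log2 fold change of the synthesis and uptake genes in MASH against chow livers was −1.48, and 19 of 22 were still lower. In the MASH-diet groups the highest library for most of these genes was MASH replicate 4 (14 of 18), C18:1 replicate 1 (14 of 18) and C18:1-leucine replicate 4 (10 of 18). The last was also the lowest of its group for 5 of 18, and C18:1-leucine replicate 1 was the highest for 6 and the lowest for 10, so that group had no common direction. Cholangiocyte markers (6 genes) summed to 23.9 CPM in C18:1-leucine replicate 4, 38.5 CPM in C18:1 replicate 1 and 32.6 CPM in MASH replicate 4, but also to 43.0 CPM in C18:1 replicate 3, which was highest for 0 of 18. The other libraries had 8.06 to 16.5 CPM, and the part of these cells was not tested. The median coefficient of variation of the synthesis genes was 12.1% in C18:1-leucine, 21.5% in C18:1, 22.1% in MASH and 30.2% in chow livers. Summed synthesis CPM was 595 ± 36.1 in C18:1-leucine, 539 ± 79.7 in C18:1 and 576 ± 74.9 in MASH livers, against 1655 ± 512 in chow livers (SD, n = 3, 4, 3 and 4).

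Per length, in CPM per kilobase of exon, the order of the 33 members changed with the diet. Sqle ranked 33 in each of the 3 MASH-diet groups, at a level of 0.395 in C18:1-leucine, 0.654 in C18:1 and 0.420 in MASH livers, and ranked 24 in chow livers at 10.7. Idi1 ranked 25, 25 and 24 in C18:1-leucine, C18:1 and MASH livers, and 7 in chow livers. Insig1 ranked 5, 11 and 10 in the same groups and 1 in chow livers, at 125 ± 52.5 CPM per kilobase in chow (SD, n = 4), next to Insig2 at 117 ± 20.0, from which it did not differ beyond the spread. Insig2 ranked 1 in every MASH-diet group, followed by Abcg5 and then by Abcg8 or Ebp. Lengths are unions of annotated exons, so genes with long unused exons are understated.

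Another 34 genes of the pathway, listed by function, were tested in the same fit. In MASH against chow livers 8 were higher, 7 lower and 19 not called, near the 20.4% higher and 15.1% lower of all tested genes. Without the 2 libraries whose tags disagree, and without the 2 with pancreatic transcripts, 7 were higher and 7 lower, and the genes named next as higher or lower were called in both settings. Gramd1b, which moves cholesterol from the plasma membrane to the endoplasmic reticulum, was higher at 15.6 ± 0.522 CPM in MASH livers, against 3.39 ± 0.461 CPM in chow livers (SD, n = 3 and 4), by 2.20 ± 0.12 on the log2 scale (adjusted p = 3.13e-07). Rnf145, an LXR-induced ubiquitin ligase, was higher by 1.22, Lipa, the lysosomal acid lipase that frees cholesterol from its esters, by 0.78, and the LXR targets Pltp and Srebf1 by 1.06 and 1.23. The other 4 of the 6 genes listed as LXR receptors, partner and targets were not called. They were Lpcat3, also an LXR target, Nr1h2, Nr1h3 and Rxra. Rnf139 and Aup1, of sterol-linked protein breakdown, were lower by 0.39 and 0.38. Tmem97, a sterol-regulated protein that binds NPC1, was lower by 0.61. Lbr, which shares the sterol reductase step of Tm7sf2, was lower by 0.45, and Nus1, of the dolichol branch, by 0.29. Mbtps1 and Mbtps2, of SREBP processing, were not called in any comparison, and neither was Ubxn4, which was listed with them. In C18:1-leucine against C18:1 livers 3 of the 34 were higher and 3 lower, near the 7.34% higher and 8.89% lower of all tested genes. Gramd1b stood at 9.22, 8.97 and 8.27 CPM in C18:1-leucine livers, against 14.7, 14.3, 16.2 and 12.4 CPM in C18:1 livers, lower by 0.71 ± 0.11 without overlap (adjusted p = 0.00338). Pltp was lower by 0.64 and Lipa by 0.29, while Marchf6, a ubiquitin ligase that acts on SQLE, was higher by 0.54 (adjusted p = 0.0102), Aup1 by 0.25 and Stard5 by 0.46. Of these 6 only Gramd1b was still called without the 2 libraries whose tags disagree (adjusted p = 0.0344) and without the 2 with pancreatic transcripts (adjusted p = 0.0334). Gramd1b was the 1 gene of the 34 called between C18:1-leucine and MASH livers, lower by 0.82 ± 0.12 (adjusted p = 0.0315). That call was lost in the same settings, at adjusted p of 0.136 and 0.243, and 0 were called between C18:1 and MASH livers.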

How the data were processed

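Liver RNA was extracted with RNeasy and made into NEBNext Ultra II RNA libraries, per the labels' protocols. HTSeq, DESeq2 1.42.1 and the GRCm38 build appear in the submitters' processing notes, with no roles given. The deposited table holds estimated counts per gene for 14 libraries. Most values are whole, and 5.09% to 5.76% of the values per library are fractional; the labels do not say how the authors made these. The expected counts were rounded to whole numbers. Genes were kept by edgeR's filterByExpr (minimum count 10, minimum total 15), which left 15674 genes, and were scaled by TMM. A group-means model over all 14 libraries was fitted with edgeR 4.0.16 in R 4.3.3 (robust quasi-likelihood, two-sided), and p-values were adjusted by Benjamini-Hochberg over all genes tested, at a threshold of 0.05. Alternatives used limma 3.58.1 (voom with sample weights), DESeq2 1.42.0, other scaling, filters, groups and left-out libraries, and 1 of them, without both libraries with pancreatic transcripts, was chosen after seeing the data, as were both refits without libraries for the markers and other pathway genes. The scripts were tested on simulated data. Exon-union lengths and coordinates come from GENCODE M21 (GRCm38). The members and gene lists were chosen with earlier results of these data known. All 33 members are named; values per library are given for those with the smallest p or the largest fold in a role and comparison and for the export members, and of the other pathway genes those named are among the 3 with the smallest p in their list and comparison. The authors' 6 deposited comparison tables were not used, because their group letters have no key in the sources used here. Groups were taken from titles, and library replicate numbers were not used to pair samples.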

Additional observations from a re-analysis of the deposited data

Results flagged for a closer look

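In the groups of 4 libraries, 8 of the 66 sets of member values held a library far from the other 3, where chance marks about 1 in 20 sets. The sets share the same libraries and many members move together, so they are not independent. The count can therefore not be weighed against that chance share. The measure is the gap of the farthest library to its nearest neighbour divided by the range of the group. C18:1 replicate 1, whose treatment tag disagrees with its title, was the far library in 5 of them. It was high for Fdps, at 39.3 CPM with a gap of 0.927 of the range, and for Hmgcs1, at 128 CPM with a gap of 0.830. It was low for Hsd17b7 at 19.1 CPM (0.918), for Npc1 at 101 CPM (0.899) and for Mylip at 22.0 CPM (0.877). Chow replicate 4 was the far library in the other 3, and was high in each. Srebf2 stood at 80.3 CPM there with a gap of 0.866, Msmo1 at 258 CPM with 0.858 and Lss at 94.2 CPM with 0.851.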

How the results depend on the processing

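No call of a member changed direction under any alternative. The median log2 fold changes of the synthesis and uptake genes and of the export genes kept their values within the spread between libraries in every alternative run. Of the 22 synthesis and uptake genes, 4 were called between C18:1-leucine and C18:1 livers. DESeq2 called 5 and voom 6, and 3 were called with no filter on low counts or with the compared groups alone. The count was 0 in 4 settings: with groups from the treatment tags, without both libraries whose tags disagree, with a minimum fold of 2, or without both libraries with pancreatic transcripts. Between C18:1-leucine and MASH livers 0 were called, and 2 by DESeq2 and 2 by voom. Of the 5 export genes, 1 was called between C18:1-leucine and C18:1 livers, 3 by voom, and 0 with the compared groups alone and in the same 4 settings as above. With a minimum fold of 2 the export count against chow was 1 in place of 2 in C18:1-leucine, C18:1 and MASH livers, and with groups from the tags it was 1 in C18:1-leucine livers. The export count against chow was 3 in C18:1-leucine livers by DESeq2 and by voom, and 3 in MASH livers with the compared groups alone. The causes were not tested. When 1 library was left out, the synthesis and uptake count ran from 0 to 5 between C18:1-leucine and C18:1 livers, 16 to 18 between C18:1-leucine and chow livers and 19 to 21 between MASH and chow livers; the export count ran from 0 to 1 and from 2 to 3 in C18:1-leucine livers against C18:1 and chow. With the replicate block, the synthesis and uptake counts were 3 between the compounds, 17, 21 and 20 in C18:1-leucine, C18:1 and MASH livers against chow, and 0 against MASH, and the export counts were 1, 2, 2, 2 and 0. The deviations of same-numbered libraries from their group means had correlations of −0.245 to 0.423 over 18 pairs of groups and numbers. Groups this small cannot show whether same-numbered libraries share a factor, and the numbers were not used as pairs in the main fit. With 3 or 4 libraries a group, changes within the MASH diet smaller than the intervals given were not detectable.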
